A study of Rattus norvegicus with 48 samples.

Results

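The immediate early genes Fos, Fosb, Jun, Junb, Egr1, Egr2, Egr3, Nr4a1 and Arc, together with Nab2, a corepressor of EGR proteins, make up 10 of the 32883 genes counted in each tissue table, and all 10 were found by symbol in both. RNA came from 24 female Long-Evans rats, each of which gave 1 library of retina and 1 of posterior eye, the tissue behind the retina. Each tissue had 4 groups of 6 animals, namely aged rats after ovariectomy (OVX, removal of the ovaries), aged rats after sham surgery, young rats after OVX and young rats after sham surgery, so every animal had been operated on. Aged rats were 9 to 10 months old, called middle-aged by the submitters, and young rats were 3 to 4 months old. The time between surgery and dissection is not given in the sources used here, and per the labels' protocols tissue was kept at 25 °C and processed within 48 h of dissection. The early genes were chosen by fold changes seen earlier in these data for OVX against sham in the young posterior eye and its interaction with age, and Nab2 was chosen by that for OVX against sham in the young retina. Those comparisons, the comparisons of age in the posterior eye, which share the young libraries, and Nab2 in the comparisons of age in the retina are therefore given as descriptions without a test. Tests were kept for aged OVX against aged sham, for the early genes in aged against young retina, and for posterior eye against retina. The test in the aged posterior eye is limited, because its libraries entered the interaction that chose genes.

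Immediate early genes are transcribed within minutes of a stimulus, before any new protein is made, through serum response factor and CREB that are already in the cell. FOS and JUN family proteins pair to form the transcription factor AP-1, EGR proteins and NR4A1 are transcription factors that bind DNA themselves, and ARC is a synaptic protein made in active neurons. NAB2 binds EGR proteins and represses their target genes, and its own gene is an EGR target, so it closes a feedback loop. In retina these genes respond to light and to injury, and in any dissected tissue they can respond to handling.

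The sequences just upstream of the start site are shown for 3 early genes with different behaviour below and for Nab2, because serum response factor and CREB act through such sites. They are the 250 bases before the start from RefSeq (rat build GRCr8), which held a promoter for 6 of the 10 genes. Capitals mark CArG boxes, which serum response factor binds, CRE half-sites (TGACG or its reverse complement) and EGR sites (GCGNGGGCG or its reverse complement), searched on both strands.
Egr1, chr18:26736828-26737077, plus strand: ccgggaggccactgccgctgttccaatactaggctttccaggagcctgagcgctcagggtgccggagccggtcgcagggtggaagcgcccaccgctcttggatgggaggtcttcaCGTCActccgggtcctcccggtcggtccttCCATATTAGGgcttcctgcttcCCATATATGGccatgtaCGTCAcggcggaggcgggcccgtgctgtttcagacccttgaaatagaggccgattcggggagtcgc
Egr2, chr20:21054442-21054691, minus strand: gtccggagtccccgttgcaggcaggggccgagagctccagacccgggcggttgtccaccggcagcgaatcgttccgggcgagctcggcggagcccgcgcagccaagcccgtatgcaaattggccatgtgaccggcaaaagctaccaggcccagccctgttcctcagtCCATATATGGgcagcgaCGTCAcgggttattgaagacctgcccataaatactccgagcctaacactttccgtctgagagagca
Nr4a1, chr7:134259888-134260137, plus strand: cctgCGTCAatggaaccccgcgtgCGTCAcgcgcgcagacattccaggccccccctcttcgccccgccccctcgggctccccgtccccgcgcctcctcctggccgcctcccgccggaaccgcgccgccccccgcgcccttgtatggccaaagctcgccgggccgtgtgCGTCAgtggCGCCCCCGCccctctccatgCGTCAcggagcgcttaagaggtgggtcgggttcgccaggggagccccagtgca
Nab2, chr7:65389256-65389505, minus strand: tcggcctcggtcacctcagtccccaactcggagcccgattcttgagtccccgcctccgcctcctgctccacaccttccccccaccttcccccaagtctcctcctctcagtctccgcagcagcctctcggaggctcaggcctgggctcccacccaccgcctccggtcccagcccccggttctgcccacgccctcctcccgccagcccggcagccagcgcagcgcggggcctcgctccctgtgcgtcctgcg
Egr1 held 2 CArG boxes, 105 and 83 bases before the start, and 2 CRE half-sites, 135 and 66 bases before it. Egr2 held 1 CArG box and 1 half-site, at the same 83 and 66 bases as the nearer pair of Egr1. Nr4a1 held 4 half-sites and 1 EGR site and no CArG box, and none of the 3 motifs was found in the Nab2 window. The remaining early genes with a promoter, not shown, were Fosb and Junb. Fosb held none of the 3 motifs either, and Junb held only 1 half-site, 155 bases before the start. Among 33469 rat promoters of the same length, 1.5% held a CArG box, 18.2% the half-site and 4.29% the EGR site, so the half-site by itself is common. A match is a run of letters and does not show that a factor binds there.

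Posterior eye libraries held 11470945 to 22971367 counts each, and retina libraries 12916146 to 30737547. A filter on low counts kept all 10 genes among 16401 tested in the posterior eye and 8 among 15481 in the retina, where Egr2 and Egr3 were too low. Summed rod markers reached 86100 to 104000 CPM (counts scaled to the library total) in every retina library but ranged from 90.2 to 34100 CPM in posterior eye libraries, which also held pigment epithelium (1540 to 7050 CPM) and skeletal muscle markers (6880 to 31700 CPM) and so were mixtures of tissues. In 4 posterior eye libraries, those of young sham animals 2, 4 and 6 and aged sham animal 16, markers of sebaceous and meibomian glands of the eyelid summed to 814.7 to 2386 CPM, against 61.99 to 213.4 CPM in the other 20. Several fold changes in the posterior eye are also given without these 4 libraries. Relations between genes, relations to markers and the comparison of tissues are given only with all 4 included. Library numbers in the column names ran in blocks by group. The labels do not say what order these numbers follow, and anything that follows them cannot be told apart from group. In bulk tissue, fewer cells of a type and less RNA per cell cannot be told apart either.

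In the young posterior eye, Fos and Egr1 were lower after OVX than after sham surgery without overlap between the 2 groups, and young sham had the highest median of the 4 groups. Fos, the partner of JUN proteins in AP-1, was at 12.7 to 21.6 CPM in young OVX animals (median 17.1) and at 22.6 to 55.1 CPM in young sham animals (median 42.0). Aged OVX animals ranged from 13.6 to 44.7 CPM (median 21.4) and aged sham animals from 11.8 to 30.0 CPM (median 22.8). The 2 young groups did not overlap, while both aged groups overlapped young sham as well as young OVX. The log2 fold change of Fos for young OVX over young sham was -1.31 ± 0.28 (SE), a level 0.405 times that of sham.

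Egr1, a zinc-finger factor with 2 CArG boxes in the sequence above, showed the same order of groups. It was at 35.5 to 58.3 CPM in young OVX animals (median 45.4) and at 62.7 to 145.5 CPM in young sham animals (median 104.2). Aged OVX animals were at 29.2 to 88.9 CPM (median 45.5) and aged sham animals at 35.8 to 103.9 CPM (median 53.6). Again the young groups did not overlap, while both aged groups overlapped each of them. The log2 fold change for young OVX over young sham was -1.22 ± 0.30. Fos and Egr1 were the 2 of 10 genes whose young OVX libraries all lay below all young sham libraries, in the comparison that chose them, where 0.134% of all tested genes did.

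**Figure D1:**
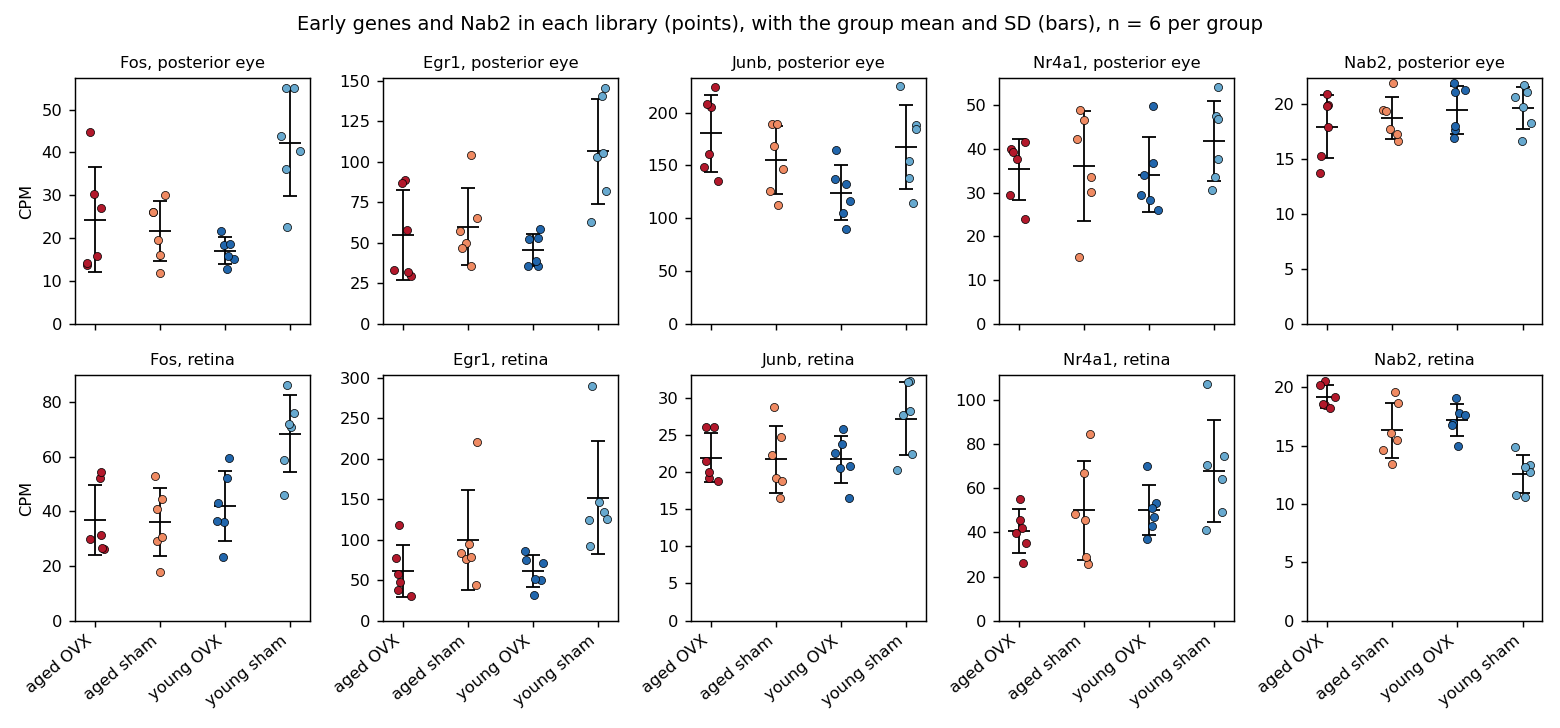
Level of 5 of the genes in CPM (vertical axis, from 0) in each library of the posterior eye (upper row) and retina (lower row), by group; points are libraries and bars the mean and SD of 6. Young sham stands above young OVX without overlap for Fos and Egr1 in the posterior eye and for Egr1 in the retina, and below it for Nab2 in the retina.

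Members of the AP-1 group other than Fos differed less in the young posterior eye. Junb, a JUN family member of AP-1, was at 90.2 to 165.1 CPM in young OVX animals (median 124.4) and at 114.3 to 225.8 CPM in young sham animals (median 169.2), with a log2 fold change of -0.43 ± 0.18. Its groups overlapped, although all 6 OVX libraries lay below the sham median. Jun, the founding member of that family, averaged 91.6 ± 15.9 CPM after OVX and 110.1 ± 11.5 CPM after sham surgery (SD, n = 6 each), a log2 fold change of -0.27 ± 0.17. Fosb averaged 1.97 ± 0.51 CPM after OVX and 2.19 ± 0.65 CPM after sham surgery, with a log2 fold change of -0.15 ± 0.28. The ranges overlapped for Jun (72.1 to 115.6 CPM after OVX and 92.3 to 128.2 CPM after sham surgery) and for Fosb.

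Nr4a1, an orphan nuclear receptor, and Arc differed by about the size of their errors or little more. Nr4a1 was at 26.1 to 49.8 CPM in young OVX animals (median 31.8) and at 30.7 to 54.2 CPM in young sham animals (median 42.3), with a log2 fold change of -0.29 ± 0.22. Arc was at 1.98 to 6.15 CPM in young OVX animals (median 4.45) and at 4.44 to 7.09 CPM in young sham animals (median 4.77), with a log2 fold change of -0.20 ± 0.26. Nab2 was at 16.9 to 21.9 CPM in young OVX animals and at 16.7 to 21.7 CPM in young sham animals, with a log2 fold change of -0.02 ± 0.10. Its 2 young groups covered the same range. All 10 log2 fold changes were below 0 in this comparison and the median of the 9 early genes was -0.43. Over all tested genes, 52.8% were below 0 with a median of -0.00973. The early genes were chosen by this comparison, so nothing is read from their count or median.

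Egr2 and Egr3, the EGR family members best known from myelination and from neurons and muscle spindles, had the largest negative fold changes in the young posterior eye, and these rested on 3 young sham libraries. Egr2 was at 2.05 to 2.99 CPM in the 6 young OVX animals, and at 1.94, 14.4, 2.52, 4.96, 2.78 and 12.4 CPM in young sham animals 1 to 6. Egr3 was at 0.154 to 0.724 CPM in young OVX animals, and at 0.0881, 5.67, 0.822, 2.63, 0.261 and 7.37 CPM in young sham animals 1 to 6. Animals 2, 4 and 6 were the high ones for both genes, and the other 3 sham animals lay among the OVX animals or beside them. The log2 fold changes for young OVX over young sham were -1.38 ± 0.47 for Egr2 and -2.83 ± 0.94 for Egr3.

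The same 3 animals, with aged sham animal 16, are the 4 whose posterior eye libraries held the most sebaceous marker RNA. Egr2 was at 4.96 to 14.4 CPM in those 4 libraries and at 0.912 to 2.99 CPM in the other 20. Egr3 was at 2.63 to 7.37 CPM in the 4 and at 0 to 0.822 CPM in the other 20. Neither gene overlapped between the 2 sets of libraries, which were set apart after the values had been seen, so no test is given. Egr3 passed the low-count filter mainly through young sham, where 4 of 6 libraries had at least 10 counts, against 1 of 6 in each other group.

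With those 4 libraries left out, an alternative chosen after seeing the data, the log2 fold change for young OVX over young sham was 0.04 for Egr2 and -0.04 for Egr3. Without them Fos stayed at -1.40 and Egr1 at -1.25, Junb was at -0.29, and 8 of 10 genes were below 0. Fos spanned 22.6 to 55.1 CPM in the 4 libraries and 11.8 to 55.1 CPM in the other 20, and Egr1 spanned 62.7 to 145.5 CPM and 29.2 to 140.6 CPM, so both overlapped. With the sebaceous marker level as a covariate the log2 fold changes were -1.29 for Fos, -1.20 for Egr1, -0.27 for Egr2 and -0.63 for Egr3. The part of gland tissue in the Egr2 and Egr3 values was not tested further.

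**Figure D2:**
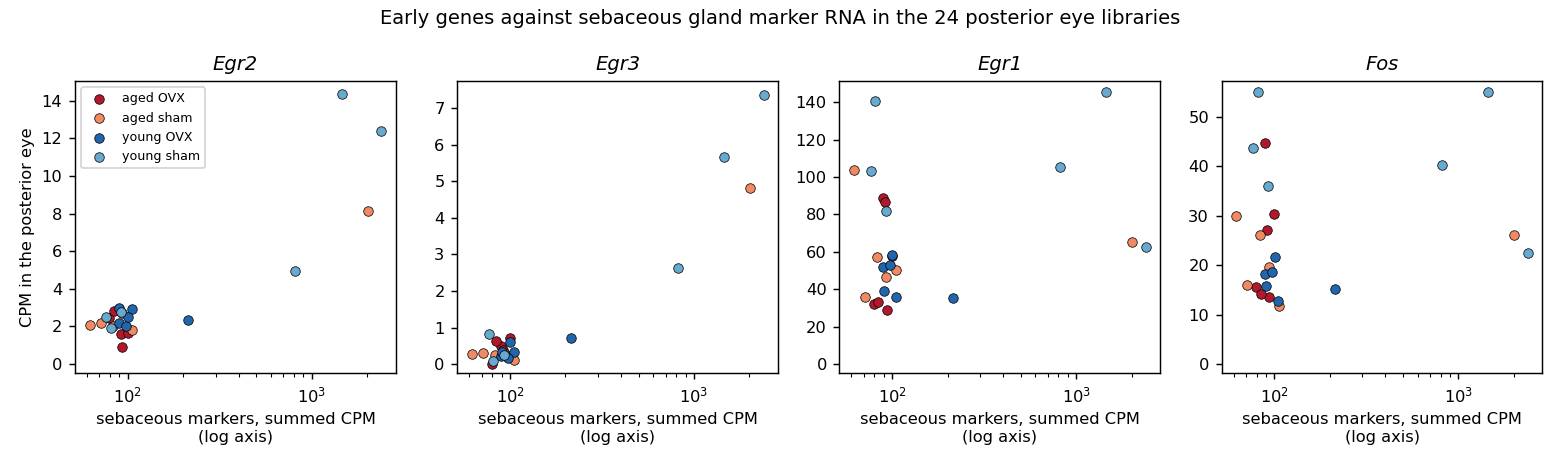
CPM of Egr2, Egr3, Egr1 and Fos (vertical axes) against the summed CPM of sebaceous gland markers (horizontal log axis) in the 24 posterior eye libraries, coloured by group. For Egr2 and Egr3 the 4 libraries at the right lie above all others, while for Egr1 and Fos high and low values occur at both ends.

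In the young retina the 7 early genes that could be fitted also lay lower after OVX, and Nab2 lay higher. Egr1 was at 31.9 to 85.7 CPM in young OVX animals (median 61.4) and at 91.7 to 289.9 CPM in young sham animals (median 129.4), without overlap. Aged OVX animals were at 29.9 to 118.3 CPM (median 52.2) and aged sham animals at 43.9 to 220.6 CPM (median 81.2). The log2 fold change for young OVX over young sham was -1.32 ± 0.35. Without young sham animal 1, the highest, or any other 1 animal of the 2 groups, it lay between -1.44 and -1.03.

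Fos was at 23.3 to 59.4 CPM in young OVX retinas (median 39.8) and at 46.1 to 86.4 CPM in young sham retinas (median 71.5). Its groups overlapped, all 6 OVX libraries lay below the sham median, and the log2 fold change was -0.71 ± 0.23. Junb was at 16.5 to 25.8 CPM in young OVX retinas and at 20.3 to 32.2 CPM in young sham retinas, with a log2 fold change of -0.32 ± 0.13. Nr4a1 was at 36.9 to 70.03 CPM in young OVX retinas and at 41.3 to 107.3 CPM in young sham retinas, with a log2 fold change of -0.44 ± 0.24. Jun, Fosb and Arc had log2 fold changes of -0.16 ± 0.08, -0.22 ± 0.33 and -0.18 ± 0.22. The median of the 7 early genes was -0.32 in the young retina, where 50.3% of all tested genes were below 0.

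Nab2 went the other way in the young retina. It was at 15.0 to 19.1 CPM in young OVX animals (median 17.3) and at 10.6 to 14.9 CPM in young sham animals (median 12.9), so the groups were separated by a narrow gap. The log2 fold change was 0.45 ± 0.09, a level 1.37 times that of sham. Aged OVX retinas were at 18.2 to 20.5 CPM (median 18.9) and aged sham retinas at 13.4 to 19.6 CPM (median 15.8), so young sham had the lowest median Nab2 of the 4 groups in the tissue where it had the highest median Egr1 and Fos. In the young retina, 1 of 8 genes lay lower in OVX without overlap (Egr1), where 0.756% of all tested genes did, and 1 lay higher (Nab2), where 0.704% did. The young contrasts chose these genes, so nothing is read from the counts.

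Aged OVX was compared with aged sham to ask whether the response to loss of the ovaries is also present in older animals. The young contrasts did not use these libraries, but the interaction with age in the posterior eye, by which genes were also chosen, did. That choice favours genes whose aged response is unlike the young one. In the posterior eye the test therefore cannot answer this question for the early genes, and no absence of a response is read from it. None of the genes tested here was called in the posterior eye (edgeR quasi-likelihood test, adjusted over 16401 genes). There 0% of all genes were called and 422 genes had an unadjusted p under 0.05, none of them among the genes tested here. Fos averaged 24.2 ± 12.3 CPM in aged OVX animals and 21.6 ± 6.96 CPM in aged sham animals (SD, n = 6 each), a log2 fold change of 0.17 with a 95% interval of -0.41 to 0.75. Egr1 averaged 54.7 ± 27.7 CPM in aged OVX animals and 59.8 ± 23.7 CPM in aged sham animals, a log2 fold change of -0.13 with an interval of -0.73 to 0.48. Junb was at 0.22 (interval -0.15 to 0.58), Nr4a1 at -0.03 (-0.49 to 0.43) and Nab2 at -0.06 (-0.28 to 0.15), and each of the genes other than Egr3 had an adjusted p of 1. Egr3 passed the low-count filter mainly through young sham, so its aged value is a description and is not counted as tested. Jun was at 62.7 to 114.5 CPM in aged OVX animals and 56.9 to 135.6 CPM in aged sham animals, Nr4a1 at 24.0 to 41.5 CPM and 15.2 to 48.9 CPM, and Arc at 2.87 to 6.80 CPM and 2.07 to 5.89 CPM, with the groups overlapping in each case.

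Egr2 and Egr3 had wider intervals in the aged posterior eye. For Egr3, 1 of 6 libraries in each aged group had at least 10 counts, so most of its aged values lie near the floor. Egr2 was at 0.912 to 2.91 CPM in aged OVX animals and at 1.79 to 8.14 CPM in aged sham animals, with a log2 fold change of -0.62 (interval -1.59 to 0.36). The 1 high sham library was that of animal 16, and without the 4 libraries rich in sebaceous markers the value was -0.08. Egr3 was at 0 to 0.714 CPM in aged OVX animals and at 0.112 to 4.83 CPM in aged sham animals, with a log2 fold change of -1.23 (interval -3.21 to 0.75), and of 0.72 without them. Apart from that library the aged groups overlapped in both genes.

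In the aged retina none of the 8 genes was called either, where 0.00646% of all tested genes were called. Nab2 was at 18.2 to 20.5 CPM in aged OVX animals and at 13.4 to 19.6 CPM in aged sham animals. All 6 OVX libraries were above the sham median, but the groups overlapped. Its log2 fold change was 0.23 ± 0.09 (edgeR adjusted p = 0.717), in the direction described for the young retina. Egr1 averaged 61.3 ± 32.4 CPM in aged OVX retinas and 99.7 ± 61.7 CPM in aged sham retinas, a log2 fold change of -0.71 ± 0.35 (interval -1.43 to 0.01, adjusted p = 0.775, edgeR). Its highest sham library, that of animal 14, stood at 220.6 CPM, and without 1 animal at a time the log2 fold change lay between -1.01 and -0.30. Pigment epithelium markers moved with these groups, with a mean log2 CPM of 4.37 to 5.03 in aged OVX retinas and 5.08 to 6.14 in aged sham retinas, without overlap. Adjusted for that level, the log2 fold change was 0.24 for Nab2 (edgeR adjusted p = 0.961) and -0.96 for Egr1 (edgeR adjusted p = 0.954). Fos was at 0.03 (interval -0.46 to 0.52), Jun at 0.00 (-0.17 to 0.18), Junb at 0.02 (-0.26 to 0.29) and Nr4a1 at -0.30 (-0.81 to 0.22).

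**Figure D3:**
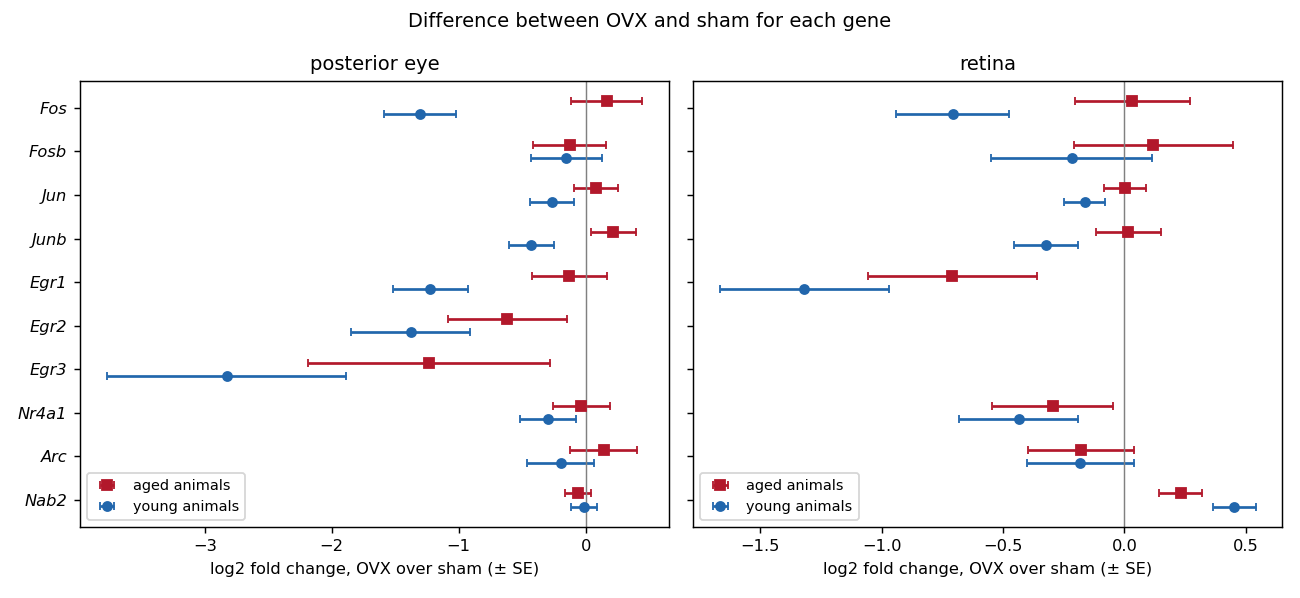
Log2 fold change of OVX over sham with its SE for each gene in the posterior eye (left) and retina (right), in aged animals (squares) and young animals (circles). The young values lie below 0 for all 10 genes in the posterior eye and for all but Nab2 of the 8 in the retina, and most aged values lie nearer 0.

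The difference between the OVX responses of aged and young animals is a description, since it contains the young contrasts. In the posterior eye the aged response minus the young response was 1.47 ± 0.40 (log2) for Fos, 1.10 ± 0.41 for Egr1, 0.65 ± 0.25 for Junb and -0.05 ± 0.15 for Nab2. It was above 0 for all 9 early genes, where 50.6% of all tested genes lay below 0. Fosb was at 0.03 ± 0.40, and from -0.163 to 0.207 without 1 animal at a time. Genes were also chosen by this difference, so nothing is read from the count. In the retina the difference was 0.74 ± 0.33 for Fos, 0.61 ± 0.49 for Egr1, 0.34 ± 0.19 for Junb and -0.22 ± 0.12 for Nab2. It was above 0 for all 7 early genes, where 48.6% of all tested genes lay below 0. That of Arc in the retina was 0.00 ± 0.31. Without the 4 libraries rich in sebaceous markers, Fos was at 1.62 and Egr1 at 1.15 in the posterior eye, and Egr2 was at -0.13 in place of 0.76.

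Aged sham was compared with young sham in the retina to ask what age does with the ovaries in place. Fos was at 17.9 to 52.9 CPM in aged sham retinas (median 35.7) and at 46.1 to 86.4 CPM in young sham retinas (median 71.5). All 6 aged libraries were below the young median, and the ranges overlapped only between 46.1 and 52.9 CPM. Its log2 fold change was -0.93 ± 0.23 (edgeR adjusted p = 0.155), which did not pass the threshold, and the adjusted p ran from 0.0538 to 0.31 over the alternatives tried. Junb averaged 21.7 ± 4.50 CPM in aged sham retinas and 27.2 ± 4.93 CPM in young sham retinas, with a log2 fold change of -0.33 ± 0.13 (edgeR adjusted p = 0.358). Egr1 (-0.60 ± 0.34), Nr4a1 (-0.44 ± 0.24) and Jun (-0.10 ± 0.08) lay below 0, and Fosb (0.07 ± 0.33) and Arc (0.17 ± 0.22) above it. None of these 7 was called, where 0.0388% of all tested genes were. These are the same animals whose posterior eyes had shown high Fos in young sham, so the retina values are not from other rats.

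Nab2, described only, was at 13.4 to 19.6 CPM in aged sham retinas and at 10.6 to 14.9 CPM in young sham retinas, a log2 fold change of 0.38 ± 0.09. All 6 aged libraries were above the young median. In aged against young OVX retinas it averaged 19.2 ± 0.97 CPM and 17.2 ± 1.37 CPM, a log2 fold change of 0.16 ± 0.09. The 7 early genes showed no call between aged and young OVX retinas, where 0.0711% of all tested genes were called. Fos was at -0.19 (interval -0.67 to 0.30), Egr1 at 0.01 (-0.71 to 0.73) and Junb at 0.01 (-0.26 to 0.29), and the ranges of the 2 groups overlapped for each.

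In the posterior eye, aged sham lay below young sham for all 10 genes, where 55.9% of all tested genes did, as a description. The log2 fold change was -0.96 ± 0.28 for Fos, -0.83 ± 0.29 for Egr1, -1.05 ± 0.46 for Egr2 and -0.07 ± 0.10 for Nab2. Without the 4 libraries rich in sebaceous markers it was -1.12 for Fos, -0.88 for Egr1 and -0.16 for Egr2. Between the OVX groups, aged animals had higher Junb, at 135.2 to 224.0 CPM against 90.2 to 165.1 CPM in young animals, a log2 fold change of 0.54 ± 0.18. Fos was at 0.51 ± 0.28 and Egr1 at 0.26 ± 0.29 in that comparison, with overlapping groups.

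Posterior eye and retina of the same animal were compared to show where these genes are more abundant. In the fit paired by animal, 93.1% of all tested genes were called, so the 7 calls among the 8 testable genes are not a result about these genes, and the sizes are what the comparison adds. Junb was higher in the posterior eye in 24 of 24 animals, at 94.2 to 241.4 CPM in the posterior eye and 15.6 to 30.8 CPM in the retina on the scale of that fit, with a log2 fold change of 2.88 ± 0.07 (edgeR adjusted p = 1.39e-20). Jun was also higher in 24 of 24, at 57.9 to 147.2 CPM in the posterior eye and 25.9 to 42.1 CPM in the retina, a log2 fold change of 1.45 ± 0.07. Arc (1.296 ± 0.11, 24 of 24 animals), Fosb (0.79 ± 0.18, 22 of 24) and Nab2 (0.36 ± 0.05, 20 of 24) were higher in the posterior eye as well. Arc, known mainly from neurons, was 2.46 times as high in the posterior eye as in the retina.

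Fos and Nr4a1 were lower in the posterior eye. Fos was at 12.0 to 58.9 CPM in the posterior eye (median 23.2) and 17.0 to 82.5 CPM in the retina (median 41.9), lower in 21 of 24 animals, with a log2 fold change of -0.72 ± 0.12. Nr4a1 was lower in 19 of 24 animals (-0.33 ± 0.08). Egr1 was lower in 17 of 24 animals, at 29.5 to 155.5 CPM in the posterior eye and 28.8 to 275.7 CPM in the retina, and was not called (-0.27 ± 0.14, edgeR adjusted p = 0.0686), although DESeq2 called it (adjusted p = 0.0395), as did edgeR without animal 9, 13, 15, 16, 20 or 24 (adjusted p over all alternatives from 0.019 to 0.133). Egr2 and Egr3 passed the filter only through the posterior eye and were not tested. Egr2 was higher there in 24 of 24 animals, at 0.923 to 15.4 CPM in the posterior eye and 0 to 0.334 CPM in the retina. Within AP-1, Fos thus had the opposite tissue order to Fosb, Jun and Junb.

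**Figure D4:**
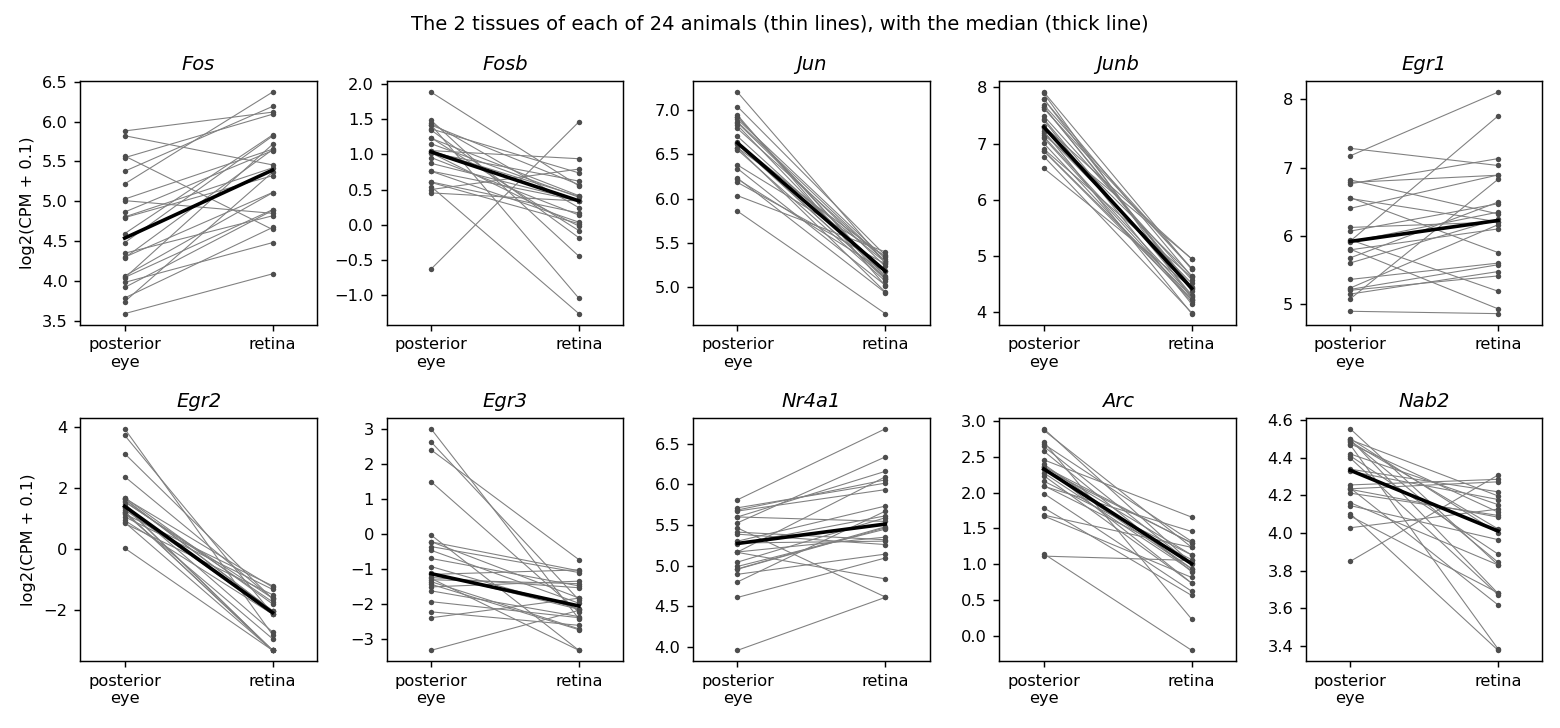
Log2(CPM + 0.1) of each gene in the posterior eye and retina of each of the 24 animals (thin lines, points are libraries) with the median (thick line). Junb, Jun, Egr2 and Arc are higher in the posterior eye of every animal, while Fos and Nr4a1 are lower in the posterior eye of most.

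A difference between tissues in the OVX response of aged animals was called for none of the testable genes (0 of 8 by edgeR, where 0% of all genes were called and 660 had an unadjusted p under 0.05). It contains the aged posterior eye response, whose libraries entered the choice of genes, so no absence of a difference is read from it. The largest was Egr1, at 0.51 ± 0.40 for the posterior eye response minus the retina response. Nab2 was at -0.30 ± 0.14 (edgeR adjusted p = 1), from a posterior eye value of -0.06 and a retina value of 0.23.

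To see whether the genes vary together between animals of 1 group, group means were removed from the log2 CPM values and each gene was related to Fos over the 24 libraries of a tissue (18 relations, permutation p adjusted over them). The 18 include Egr2 and Egr3 in the retina, which were too low there to pass the count filter. The relations to Fos that passed were not the same in both tissues, a difference that was not tested. In the posterior eye Fos followed Egr1 (Pearson r = 0.884, Spearman rho = 0.898, permutation p = 1e-05, the smallest that 100000 permutations can give, adjusted p = 9e-05) and Jun (r = 0.795, rho = 0.871, permutation p = 3e-05, adjusted p = 0.00018). Without the 2 animals farthest from the median of Fos, 6 and 20, r was 0.85 and 0.826. In the retina Fos followed Junb (r = 0.903, rho = 0.852, permutation p = 1e-05, adjusted p = 9e-05) and Nr4a1 (r = 0.761, rho = 0.737, permutation p = 7e-05, adjusted p = 0.000315). Without animals 10 and 13, r was 0.876 and 0.695.

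Fosb was related to Fos in both tissues, with r = 0.603 and rho = 0.63 in the posterior eye (permutation p = 0.00709, adjusted p = 0.0213) and r = 0.584 and rho = 0.539 in the retina (permutation p = 0.00356, adjusted p = 0.0128). Those relations rest in part on the 2 animals left out, without which r was 0.507 (adjusted p = 0.0802) and 0.522 (adjusted p = 0.0716). Jun in the retina (r = 0.48, rho = 0.277, permutation p = 0.0445, adjusted p = 0.1; r = 0.167 without 2 animals) and Nr4a1 in the posterior eye (r = 0.438, rho = 0.361, permutation p = 0.0427, adjusted p = 0.1) did not pass after adjustment. Junb in the posterior eye (r = 0.234, rho = 0.265, permutation p = 0.301) and Egr1 in the retina (r = 0.342, rho = 0.409, permutation p = 0.144) did not pass. The relation of Nab2 to Fos did not pass in the posterior eye (r = 0.00731, rho = 0, permutation p = 0.978) or the retina (r = 0.316, rho = 0.22, permutation p = 0.164).

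**Figure D5:**
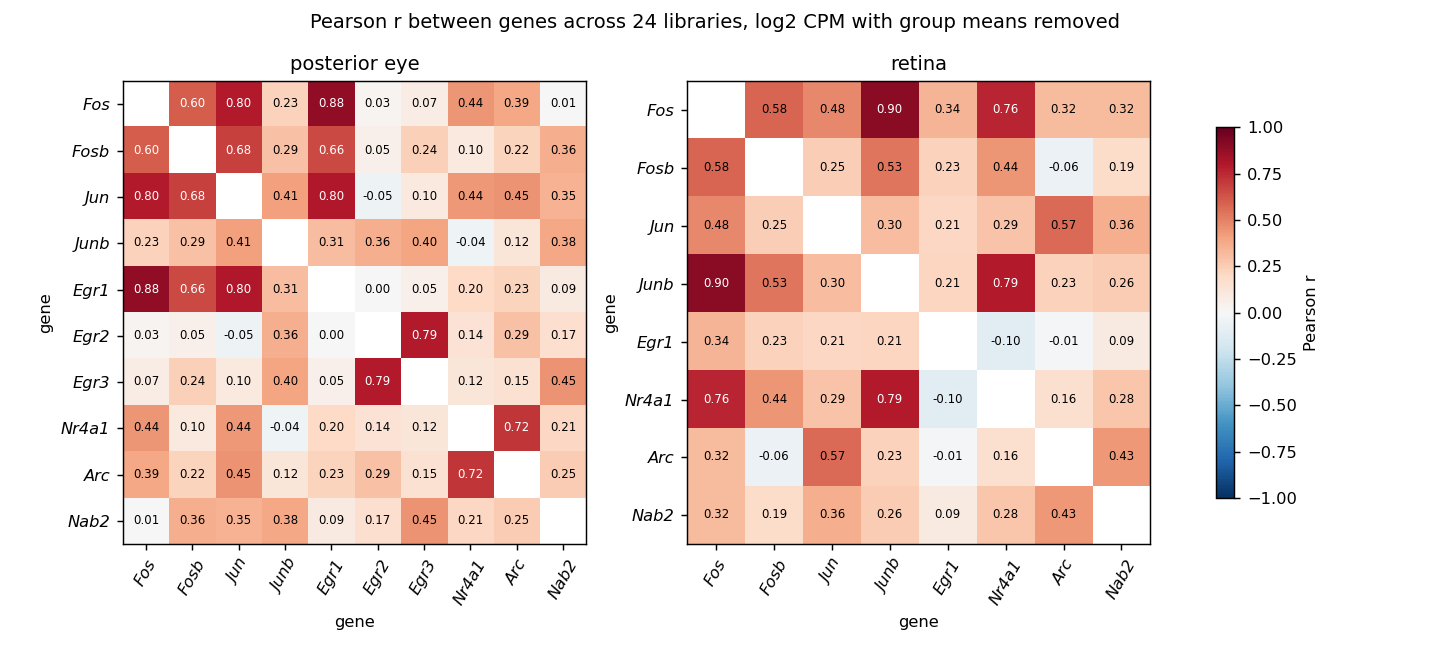
Pearson r between each pair of genes (rows and columns) over the 24 libraries of the posterior eye (left) and retina (right), on log2 CPM with group means removed; red is positive and blue negative. Fos, Egr1, Jun and Fosb form 1 block in the posterior eye, Egr2 with Egr3 and Nr4a1 with Arc form pairs apart from it, and in the retina the block is Fos, Junb and Nr4a1.

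Over all pairs of early genes, r was above 0 for 34 of 36 pairs in the posterior eye (median 0.265) and for 18 of 21 in the retina (median 0.305), as a description without a test, from points that share a library. Values of r between Nab2 and the early genes were 0.00731 to 0.453 in posterior eye libraries and 0.092 to 0.432 in retina libraries, all above 0. In the retina this held within groups although Nab2 and the early genes differed in opposite directions between the young groups.

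No relation between the levels of a gene in the 2 tissues of an animal passed after adjustment over 10 genes. Egr2 and Egr3 are among the 10, although no retina library reached 10 counts for either. Nr4a1 had the highest value (r = 0.608, rho = 0.523, permutation p = 0.00742, adjusted p = 0.0742; r = 0.473 without animals 13 and 15). For Fos r was 0.28 (rho = 0.226, permutation p = 0.225) and for Egr1 0.297 (rho = 0.428, permutation p = 0.218).

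RNA levels of cell type markers moved with these genes within groups, and whether cell numbers differed was not tested. The amacrine marker level of the retina had a narrow spread, with an SD within groups of 0.0526 to 0.0762 (log2 CPM). The mean log2 level of the early genes fell as amacrine cell markers rose, both in the posterior eye (r = -0.685, rho = -0.683, permutation p = 0.00075, adjusted p = 0.00853 over 32 relations; r = -0.683 without 2 animals) and in the retina (r = -0.749, rho = -0.702, permutation p = 0.00016, adjusted p = 0.00512; r = -0.708 without 2 animals). In the posterior eye it also fell as rod markers rose (r = -0.664, rho = -0.653, permutation p = 0.0008, adjusted p = 0.00853; r = -0.683 without 2 animals) and as ganglion cell markers rose (r = -0.573, rho = -0.53, permutation p = 0.00601, adjusted p = 0.0481 for r and 0.0715 for rho; r = -0.512 without 2 animals, adjusted p = 0.124). With sebaceous markers, which are high where Egr2 and Egr3 are high, it had r = 0.569 and rho = 0.575 in the posterior eye (permutation p = 0.00857, adjusted p = 0.0548 for r and 0.0358 for rho; r = 0.43 without animals 6 and 16, adjusted p = 0.207). Both genes are part of that mean. By gene, as a description, r with these markers was 0.802 for Egr2 and 0.837 for Egr3. For the other early genes it lay between -0.0698 (Nr4a1) and 0.215 (Junb). Muller glia (r = -0.561) and pigment epithelium markers (r = -0.553) each had a permutation p adjusted to 0.0832 in the posterior eye. In the retina, r with the mean of the early genes was 0.248 for rod markers and 0.343 for ganglion cell markers (permutation p adjusted to 0.414 and 0.336). By gene in the retina, as a description, r with amacrine markers lay between -0.719 (Junb) and -0.0366 (Arc). Total count, library number within a group and the mitochondrial share had adjusted p of 0.255 or more in both tissues.

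Between groups, summed rod markers in the posterior eye had medians in the same order as Fos and Egr1. The median was 4690 CPM in aged OVX animals (207 to 19700), 8240 CPM in aged sham animals (235 to 24100), 2990 CPM in young OVX animals (90.2 to 34100) and 11900 CPM in young sham animals (719 to 31600), with wide overlap. Adjusted for the rod level, the young OVX log2 fold change was -1.40 for Fos and -1.35 for Egr1. In the retina, amacrine markers summed to 665 to 763 CPM in young OVX animals and 680 to 749 CPM in young sham animals, and pigment epithelium markers to 1110 to 1350 CPM and 1120 to 1310 CPM. The mean log2 CPM of the pigment epithelium markers, which weights each of them equally, was 4.92 to 5.54 in young OVX retinas, with 5 of 6 above all young sham retinas, and 4.59 to 5.33 in young sham retinas. Adjusted for the pigment epithelium level, Fos was at -0.81, Egr1 at -1.12 and Nab2 at 0.45.

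Skeletal muscle markers moved with several of the genes in the posterior eye, as a description without a test. Over the 24 libraries with group means removed, r with the muscle level was 0.814 for Nr4a1 and 0.765 for Arc, which were also related to each other (r = 0.717). It was 0.556 for Jun, 0.509 for Fos and 0.381 for Egr1, and lay between -0.00819 and 0.168 for the other 5 genes. The summed muscle markers ranged from 10500 to 31600 CPM in young OVX animals and from 16400 to 26700 CPM in young sham animals, and from 14100 to 30000 CPM in aged OVX animals and from 6880 to 31700 CPM in aged sham animals. The part of muscle in these values was not tested.

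The wider pathway had no call for aged OVX against aged sham. Over all tested genes 0% were called in the aged posterior eye and 0.00646% in the aged retina, so nothing is read from that. Among 37 measured other early response genes, 20 feedback regulators, 30 upstream kinases and factors and 18 later activity-dependent genes, 0 were called for aged OVX against aged sham in the posterior eye. There 23 of the 37 other early genes lay above 0 (median 0.07, against 0.00314 over all genes) and 13 of the 18 later genes below it (median -0.23), where 49% of all tested genes lay below 0. By smallest p these were Maff, a small MAF factor, at 17.1 ± 1.99 CPM in aged OVX animals and 13.9 ± 1.95 CPM in aged sham animals (edgeR adjusted p = 1), and Klf4, a Kruppel-like factor, at 93.2 ± 17.6 CPM and 69.2 ± 10.7 CPM. Among feedback regulators, Dusp6, a phosphatase of ERK, was at 78.6 ± 7.69 CPM in aged OVX animals and 63.6 ± 13.2 CPM in aged sham animals, and Zfp36l1, which destabilises early mRNAs, at 87.9 ± 12.8 CPM and 73.7 ± 11.8 CPM. Rps6ka1, a kinase below ERK, had a log2 fold change of 0.34 ± 0.18, Mapk3 (ERK1) 0.11 ± 0.08 and Bdnf, a neurotrophin, -0.76 ± 0.48.

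In the aged retina the same lists also had 0 calls, with 21 of 39 other early genes above 0 (median 0.00644), where 50.2% of all tested genes lay below 0. Bhlhe40, a repressor of the clock, was at 72.4 ± 9.69 CPM in aged OVX animals and 82.2 ± 2.90 CPM in aged sham animals (edgeR adjusted p = 0.719), and Ier2 had a log2 fold change of -0.19 ± 0.11. Spry4, an inhibitor of receptor signalling, was at 0.26 ± 0.11 (log2) and Nfkbia, the inhibitor of NF-kappaB, at -0.12 ± 0.05. Rps6ka1 was at 0.21 ± 0.08, Elk4, a partner of serum response factor, at 0.17 ± 0.07, the neuropeptide gene Sst at -0.28 ± 0.10 and Vgf at 0.28 ± 0.11. Between tissues, the OVX response of aged animals had 0 calls in the lists, where 0% of all tested genes were called, with Dusp6 at 0.59 ± 0.17 for posterior eye minus retina (edgeR adjusted p = 1). By smallest p, the others were Nfkbia (0.20), the transcription factor Myc (-0.58), Ier5 (0.30), Mapk3 (0.12), the CREB coactivator Crtc1 (-0.24), the synaptic scaffold Homer1 (-0.305) and Bdnf (-0.69).

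In the young posterior eye, described only, 23 of the 37 other early response genes lay below 0 with a median of -0.09, and in the young retina 17 of 39 did with a median of 0.02. Of later activity-dependent genes 14 of 18 lay below 0 in the young posterior eye (median -0.34) and 8 of 18 in the young retina (median 0.05). Of feedback regulators 14 of 20 lay below 0 in the young posterior eye (median -0.09) and 8 of 20 in the young retina (median 0.03). Of upstream kinases and factors 15 of 30 lay below 0 in the young posterior eye and 13 of 30 in the young retina. Over all tested genes 52.8% lay below 0 in the young posterior eye and 50.3% in the young retina.

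The genes most like the mean of the early genes, by Pearson r over 24 libraries with group means removed, were in the posterior eye Tmem110 (r = 0.835), Entpd5 (0.833), Rpia (0.833), Dpep1 (0.823) and Acaa2 (0.816) of 12932 compared. In the retina they were Exosc6 (0.881), Mien1 (0.807), Zswim4 (0.797), Npdc1 (0.777) and Alpl (0.761) of 12006 compared. For Nab2 the nearest were Prss12 (0.751), Nrg2 (0.734), Rspo1 (0.73), Zfp93 (0.705) and Mzt2b (0.705) in posterior eye libraries, and Numb (0.786), Lrrc3b (0.736), Slc1a4 (0.722), Mavs (0.689) and Arsk (0.667) in retina libraries. No gene was in the top 5 of both tissues. These are the highest of many and carry no test. The posterior eye mean includes Egr2 and Egr3, whose r with sebaceous markers was 0.802 and 0.837. The ranking was not repeated without these genes or without the libraries rich in sebaceous markers, so it may follow them in part.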

How the data were processed

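The deposited values are raw counts, 1 table from the authors for each tissue, and are whole numbers with unequal library totals. Libraries started from 10 ng of total RNA (SMART-Seq v4, Nextera XT, paired NovaSeq reads, per the labels' protocols). The kit does not mark strand, so reads of overlapping genes on opposite strands cannot be told apart. The submitters' processing notes name STAR 2.7.3a, HTSeq, DESeq2 and the rat build Rnor_6.0, without their settings, and the annotation is not given in the sources used here.

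Low counts were removed with filterByExpr, libraries were scaled by TMM, and edgeR 4.0.16 (R 4.3.3) was fitted with 1 mean per group over the 24 libraries of a tissue. The quasi-likelihood test was adjusted over all tested genes by the Benjamini-Hochberg method, and the threshold for a call was an adjusted p of 0.05. The common coefficient of variation between animals was 33.4% over posterior eye libraries and 12% over retina libraries. Tissues were compared over 17153 genes with the animal as a block, since the labels give both tissues of an animal the same number. Levels are CPM on the TMM scale. Standard errors come from the fold change and its test, and are approximate. Relations used 100000 permutations within groups, two-sided. Promoters of the GRCr8 build were matched by symbol, and no other coordinates were used.

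Alternatives were another scaling (RLE), no filter, DESeq2 1.42.0, limma-voom 3.58.1, only the groups compared, marker levels as covariates, no block, an exact permutation test per gene, and each animal left out. The 10 genes, the 4 lists of related genes and the tests were chosen with earlier results of these data known. All 10 genes are named throughout. From each list the 2 genes with the smallest p are given in each tested OVX contrast and in the difference between tissues, since none was called, except 1 that is not reported here. The genes most like the early genes or Nab2 are the 5 with the highest r among those with a mean of at least 2 CPM. Replicates are separate animals. The analysis scripts were tested on simulated data.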

Additional observations from a re-analysis of the deposited data

Results flagged for a closer look

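In 72 groups of 6 libraries checked, 4 held 1 library far from the other 5 (its gap to the nearest over the range above Dixon's critical value), and chance flags about 1 in 20 groups. Aged sham animal 16 stood apart in the posterior eye for Egr2, at 8.138 CPM with the next library at 2.739 CPM, and for Egr3, at 4.83 CPM with the next at 0.3149 CPM. This library is 1 of the 4 with high sebaceous markers. For Egr3 in the aged OVX posterior eye, animal 22 was at 0 CPM with the next library at 0.2851 CPM, a difference of a few counts that lies near the limit of 3 counts. Arc in the young sham posterior eye was at 7.09 CPM in animal 5, with the next library at 4.91 CPM.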

How the results depend on the processing

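No tested gene changed its side of the threshold in aged OVX against aged sham or in aged against young retina under any alternative run. For the early genes in the aged posterior eye nothing is read from this, since those libraries entered the interaction that chose genes. In the paired comparison of tissues, dropping the animal block left 7 of 8 genes called, with Junb at 2.89, and changed no other call.

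Counts over all genes moved more. For aged OVX against sham in the retina, 1 gene was called, against 0 with the pigment epithelium covariate, 9 with DESeq2 and 0 with limma-voom. For aged against young sham in the retina, 6 were called, against 0 with that covariate and 66 with DESeq2. For aged against young OVX in the retina, 11 were called, against 3 with that covariate, 17 when only the 2 groups were fitted and 68 with DESeq2. The difference between tissues in the aged OVX response had 0 calls and 1 with DESeq2. Without 1 animal at a time these counts ran from 0 to 1, 0 to 24 and 2 to 16.

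Descriptions by sign also moved. Of the 10 genes, 1 lay below 0 in the interaction in the posterior eye, against 2 with RLE and 3 without the 4 libraries rich in sebaceous markers, and 3 lay below 0 for aged against young OVX in the posterior eye, against 6 with the rod covariate and 3 to 5 without 1 animal at a time. Some single log2 fold changes changed sign, and none of them was called. In the aged posterior eye Egr3, at -1.23 in the report, was at 0.443 with the sebaceous covariate and 0.715 without those 4 libraries, and Nr4a1 at 0.0696 without them, 0.0275 with limma-voom and 0.0365 in the permutation test. In the aged retina Jun was at -0.00299 without a filter, Nr4a1 at 0.0102 with the pigment epithelium covariate, and Fosb at -0.0302 with limma-voom and -0.0196 in the permutation test. For aged against young OVX in the retina Egr1 was at -0.295 with that covariate and -0.0701 with limma-voom, and Nr4a1 at 0.0176 with the covariate. Without 1 animal at a time, the aged posterior eye values ran from -0.0998 to 0.288 for Fos, -0.281 to 0.0539 for Fosb, -0.0291 to 0.25 for Jun, -0.321 to 0.103 for Egr1, -1.49 to 0.705 for Egr3, -0.204 to 0.0568 for Nr4a1, -0.0123 to 0.26 for Arc and -0.11 to 0.00486 for Nab2. In the aged retina they ran from -0.115 to 0.17 for Fos, -0.206 to 0.3 for Fosb, -0.0711 to 0.0404 for Jun and -0.0489 to 0.11 for Junb. For aged against young sham in the retina Fosb ran from -0.0415 to 0.241, and for aged against young OVX Junb ran from -0.0506 to 0.0686 and Egr1 from -0.29 to 0.151. For the difference between tissues Fos ran from -0.268 to 0.29 and Fosb from -0.587 to 0.308. The cause was not tested. The depth limits Egr2 and Egr3 in the retina, where no library reached 10 counts.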
